A study of Mus musculus with 3 samples.

Results

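Cartpt and Cck are 2 neuropeptide genes, chosen by name from the authors' beta-cell table because that table gives them opposite differences between genotypes. They are 2 of the 8193 genes listed for beta cells, and neither is among the 186 genes listed for alpha cells or the 231 listed for delta cells. Their beta-cell difference is the reason they were chosen, so it is given here as a description with no test. The knockout group is 2 mice of genotype IRE1αβ-/-, a loss of the endoplasmic reticulum stress sensor IRE1α (gene Ern1) in beta cells, and the control group is 1 mouse of genotype IRE1αfl/fl, which carries the floxed gene and which the series text calls wild type. All 3 mice were NOD/ShiLtJ, a strain that develops autoimmune diabetes, were 5 weeks old, and by the labels' protocols received tamoxifen (10 mg per ml, on 5 consecutive days) to switch on the Cre recombinase. Neither the promoter that drives that Cre nor its presence in the control mouse is stated in the labels. Islets were picked by hand, cultured overnight, dissociated and profiled in droplets.

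Cartpt encodes the precursor of the cocaine- and amphetamine-regulated transcript peptides, which act in the brain on feeding and in islets on hormone release. In the rat, islet CART is found in delta cells and nerves and appears in beta cells of diabetic animals, and mice without the gene secrete insulin poorly. Cck encodes cholecystokinin, the gut and brain peptide that contracts the gallbladder, stimulates pancreatic enzyme release and signals satiety through the receptors Cckar and Cckbr. Beta cells of obese mice are known to switch on Cck. Both precursors travel in secretory granules, where prohormone convertases cut them, and the end of cholecystokinin is then amidated and one of its tyrosines sulphated.

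Cartpt (ENSMUSG00000021647) lies on mouse chromosome 13, from 99898489 to 99901091 on the minus strand of mm10, and has 2 annotated transcripts of 3 exons each in GENCODE M21. Cck (ENSMUSG00000032532) lies on chromosome 9, from 121489824 to 121495694 on the minus strand, with 6 annotated transcripts of 2 to 4 exons. Both genes are textbook targets of cyclic AMP signalling, so the stretches that hold the matching letters are shown, taken from RefSeq (build GRCm38.p6), 5′ to 3′. For Cartpt the 30 bases are chr13:99900777-99900806, minus strand, from 123 to 94 bases before the RefSeq start; the longer GENCODE transcript starts farther upstream, so only this site is shown. For Cck the 250 bases are chr9:121495695-121495944, minus strand, ending at the base before the start. Capitals mark the cyclic AMP response element TGACGTCA in Cartpt, and in Cck the E-box CACGTG followed by TGCGTCA, known as the cyclic AMP and phorbol ester element of this promoter.
Cartpt: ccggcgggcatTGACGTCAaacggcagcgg
Cck: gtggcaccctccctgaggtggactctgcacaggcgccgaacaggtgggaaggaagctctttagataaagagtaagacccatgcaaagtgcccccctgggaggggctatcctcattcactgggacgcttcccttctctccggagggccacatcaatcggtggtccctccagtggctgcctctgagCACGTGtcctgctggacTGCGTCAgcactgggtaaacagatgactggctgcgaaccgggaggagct

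The same 250-base window was searched on both strands in 32851 RefSeq promoters. TGACGTCA was present in 1.55% of them and in Cartpt but not in Cck. TGCGTCA was in 1.75% and CACGTG in 6.02%, each in Cck but not in Cartpt. The half-site TGACG, found in 17.8%, occurred in both genes only inside the elements already shown, and the GC box GGGCGG, in 32.7%, occurred once in Cartpt. TGACGTGG (0.563%), the core of the unfolded protein response element, the ER stress element (0.113%) and the AP-1 letters TGANTCA (6.75%) were in neither window. A match describes letters and does not show that a factor binds there.

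In beta cells, Cartpt was lower in the knockout. The 815 knockout cells, pooled from both mice by the authors, held 122 Cartpt UMIs, against 841 in 829 control cells. A UMI is the tag of 1 captured transcript. Per cell this was 0.150 UMIs in the knockout [0.124 to 0.179] and 1.01 in the control [0.947 to 1.09], where brackets give exact 95% intervals that cover counting error only. The ratio of knockout over control was 0.148 [0.121 to 0.179], or -2.76 on the log2 scale. At most 122 of the 815 knockout beta cells can therefore have held a Cartpt UMI.

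Cck was higher in the knockout. It had 337 UMIs over the knockout cells, against 23 over the control cells. Per cell this was 0.413 UMIs in the knockout [0.371 to 0.460] and 0.0277 in the control [0.0176 to 0.0416]. The ratio was 14.9 [9.77 to 23.8], a log2 difference of 3.90, and its wide interval comes from the few control UMIs. At most 41.3% of knockout cells can have held a Cck UMI, against at most 2.77% of control cells. How either transcript was spread over cells was not analysed here.

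**Figure D1:**
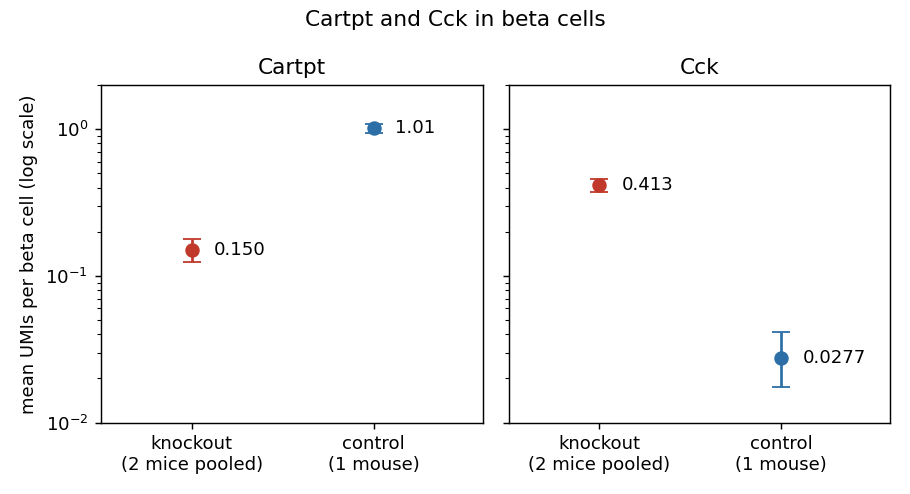
Mean UMIs per beta cell (log axis) of Cartpt and Cck, knockout at left and control at right in each panel, with exact 95% counting intervals as bars. Cartpt is at 0.150 in the knockout and 1.01 in the control, and Cck at 0.413 in the knockout and 0.0277 in the control.

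Set against each other the 2 genes give a measure that no scaling of depth can alter. It restates the values for which the pair was chosen, so it adds no support to them. Of the UMIs of the pair, Cck supplied 73.4% in knockout beta cells [69.1 to 77.4] and 2.66% in control beta cells [1.69 to 3.97] (exact Clopper-Pearson intervals of 459 and 864 UMIs). The log2 differences of Cck and Cartpt lay 6.66 apart, a 101-fold change in their balance. 

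Because the beta-cell table has 1 value per genotype, no difference could be set against the spread between mice. How the 815 knockout beta cells divide between the 2 mice is not in the table, so the share of either mouse in the Cartpt and Cck values was not analysed here. In the authors' deposited table the adjusted p, computed from cells, is 4.08e-10 for Cartpt and 3.49e-16 for Cck; cells are not replicates.

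Both genes stood far from the bulk of the listed genes. They were chosen for these differences, so this and their ranks below are description only. The median log2 difference of the 8193 genes was 0.54, and 95.0% of them were higher in the knockout and 5.04% lower. A ratio of at least 1.5 was reached by 45.7% of genes in the higher direction and by 2.47% in the lower one, the direction of Cartpt. After centring on the median gene these shares were 16.0% and 4.19%, with Cartpt and Cck still past 1.5. The share of all listed genes that were higher was 80.5% when values were scaled to the listed UMIs other than Ins1, Ins2 and Iapp. Relative to the median gene, Cartpt was at 0.101 and Cck at 10.2. Ern1 itself was close to that median, at 0.742 UMIs per knockout cell and 0.509 per control cell, a ratio of 1.46 [1.29 to 1.66], so the targeted gene was not lower in the cells labelled knockout; the labels do not say which exons were removed, and the label is used as the submitters gave it.

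Of the 8090 genes with UMIs in both genotypes, 13 had a lower ratio than Cartpt, and those 13 had between 13 and 339 control UMIs, fewer than its 841. Among the 1987 genes whose control level was within a factor of 2 of its own, 123 were lower in the knockout and Cartpt had the lowest ratio. A ratio above that of Cck was seen in 22 genes, led by the globin genes Hbb-bt, Hba-a1 and Hbb-bs of red cells. Those 22 had between 16 and 10360 knockout UMIs and at most 32 control UMIs. Many of them, such as Bgn and Tnc, rest on 1 control UMI. Among the 777 genes within a factor of 2 of the control level of Cck, 763 were higher and Cck had the third highest ratio.

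**Figure D2:**
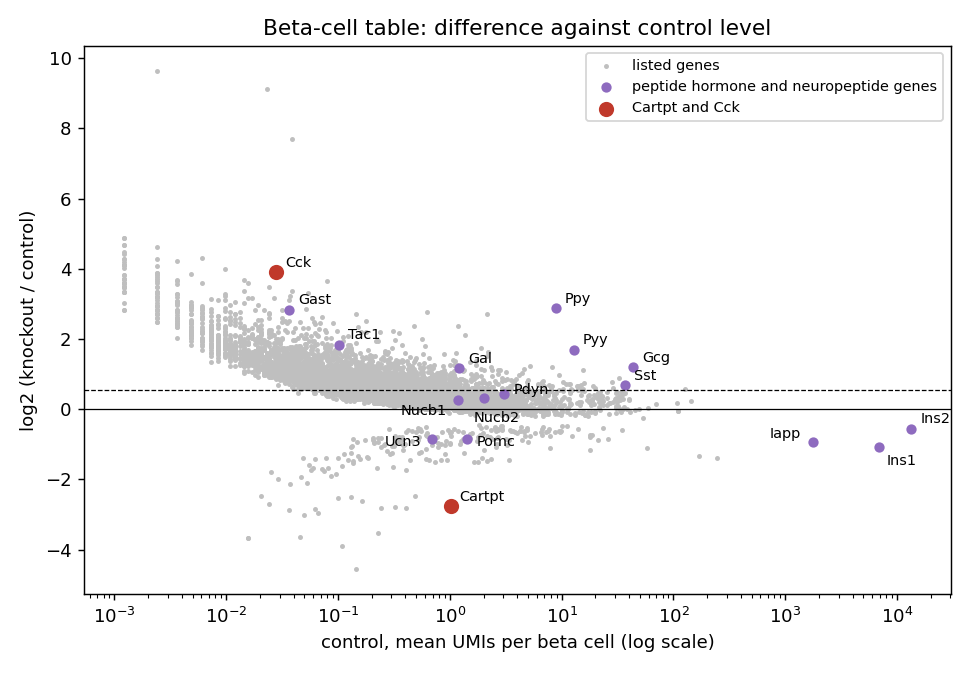
Log2 of knockout over control against the control level (mean UMIs per beta cell, log axis) for the 8090 listed genes with UMIs in both genotypes; the dashed line is the median of all listed genes, 0.54. Cartpt lies at -2.76, below the genes of like control level, and Cck at 3.90 near the upper edge of its own.

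The genes with the pattern most like each of them were taken as the 5 nearest by distance over the log2 levels in both columns (2 values per gene). No gene was close to Cartpt. The nearest, at 0.91 to 1.10 log2 units, were Traf3ip2 (an interleukin-17 receptor adaptor), Hilpda (a lipid droplet protein induced by hypoxia), Fh1 (fumarate hydratase), Adam32 and Tfrc (the transferrin receptor). Their ratios, from 0.350 for Traf3ip2 to 0.423 for Tfrc, were all nearer to 1 than that of Cartpt. Cck had closer company, at 0.48 to 0.79 log2 units. These were Sftpd (surfactant protein D), Aqp4 (a water channel), Lbp (which binds bacterial lipopolysaccharide), Gast and Fev.

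Gast encodes gastrin, the sister peptide of cholecystokinin, which shares its amidated end and the receptor Cckbr and is made in the fetal islet. It had 0.258 UMIs per knockout cell and 0.0362 per control cell, a ratio of 7.12 [4.84 to 10.8] from 210 UMIs in the knockout and 30 in the control. Fev, a transcription factor of endocrine progenitors and serotonin neurons, had 0.239 per knockout cell and 0.0265 per control cell, a ratio of 9.02 [5.79 to 14.7]. Sftpd was at a ratio of 10.3, Aqp4 at 9.45 and Lbp at 11.1. The intervals of all 5 ratios overlapped that of Cck. Because these genes were chosen for levels near those of Cck, the overlap shows no further likeness.

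Other peptide genes split in both directions, with Cartpt and Cck at the ends, a place favoured by their choice for these differences. Of 46 peptide hormone and neuropeptide genes, 18 were listed. In the knockout 12 were higher and 6 lower, where 95.0% of all listed genes were higher and 5.04% lower. Their median log2 difference was 0.57 against 0.54 for all listed genes, with 9 above the median gene and 9 below it. Past a ratio of 1.5 there were 9 higher genes, a share close to the 45.7% of all listed genes, and 5 lower ones, where 2.47% of all genes were lower. Leaving out Cartpt and Cck, 8 of 16 were higher and 4 lower past 1.5. The genes not listed may have been measured and were not analysed here.

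The lower peptides next to Cartpt were those of the mature beta cell, and Pomc. Ucn3 (urocortin 3, a late maturity marker) had 0.385 UMIs per knockout cell and 0.691 per control cell, a ratio of 0.557 [0.484 to 0.641]. Pomc, the precursor of melanocortins and an opioid peptide, had 0.799 per knockout cell and 1.43 per control cell, a ratio of 0.560 [0.508 to 0.616]. The insulin genes Ins1 and Ins2 were at ratios of 0.475 and 0.684, and Iapp (amylin) at 0.525. None of these 5 ratios came near the 0.148 of Cartpt, and no counting interval reached it.

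The higher peptides next to Cck included other neuropeptides. Tac1, the precursor of substance P, had 0.367 UMIs per knockout cell and 0.103 per control cell, a ratio of 3.58 [2.80 to 4.61]. Gal (galanin, which restrains insulin release) had 2.74 per knockout cell and 1.21 per control cell, a ratio of 2.26 [2.10 to 2.44]. Sct, the precursor of the gut hormone secretin, had 14 UMIs over the knockout cells and none over the control cells, and was at least 4.75-fold higher if the control group is given the 3 UMIs that a count of 0 allows. Pdyn (prodynorphin, an opioid precursor) was at 1.36, Nucb2 (which contains nesfatin) at 1.24 and its relative Nucb1 at 1.19, all below the 1.45 of the median gene. The hormones of other islet cells were at 7.36 for Ppy, 3.25 for Pyy, 2.30 for Gcg and 1.61 for Sst.

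**Figure D3:**
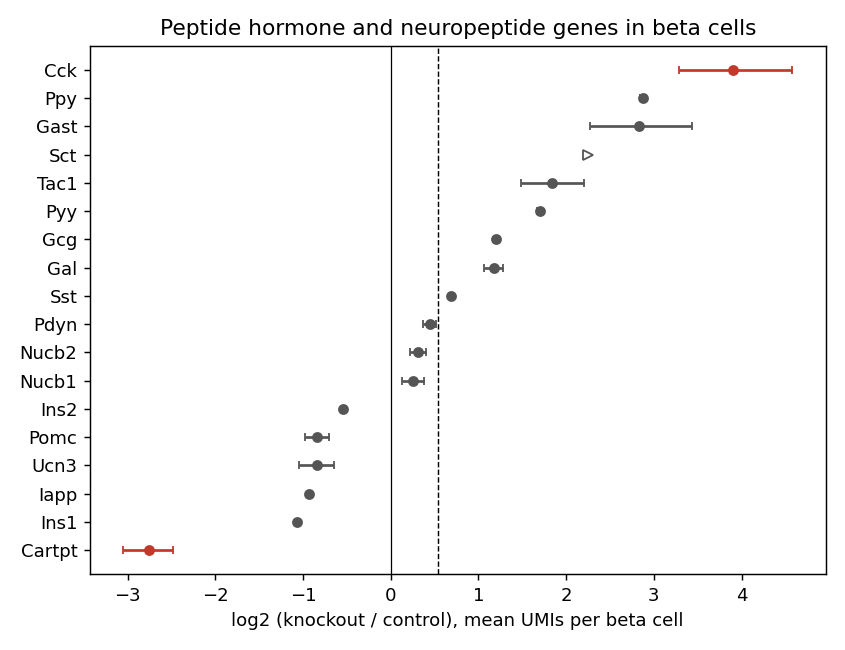
Log2 of knockout over control for the 18 listed peptide hormone and neuropeptide genes, with 95% counting intervals; the open triangle for Sct is a lower bound and the dashed line is the median of all listed genes, 0.54. Cck is at the top at 3.90 and Cartpt at the bottom at -2.76, with gaps to their neighbours Ppy at 2.88 and Ins1 at -1.07.

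The enzymes that turn both precursors into peptides are given by the step they carry out. Of 25 genes for prohormone processing, 18 were listed, 15 higher and 3 lower, at a median of 0.57, with 9 above the median gene and 9 below it; 9 were past 1.5 in the higher direction and 0 in the lower, beside 45.7% and 2.47% of all listed genes, of which 95.0% were higher at any size. For cutting, Pcsk2, the convertase that acts in granules, had 15.1 UMIs per knockout cell and 15.6 per control cell, a ratio of 0.968 [0.944 to 0.992]. Its chaperone gene Scg5 was at 0.949 and Pcsk1n, which encodes an inhibitor of the related convertase Pcsk1, at 0.947. These were the 3 lower genes. Furin, the convertase of the Golgi, was at 1.95 [1.69 to 2.25] and Pcsk6 at 1.78. Pcsk1 was not analysed here.

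For trimming, Cpe, the carboxypeptidase of the granule, had 27.7 UMIs per knockout cell and 21.4 per control cell, a ratio of 1.30 [1.27 to 1.32]; the carboxypeptidases Cpd and Cpm were at 1.73 and 1.28. Pam, the amidating enzyme that cholecystokinin and gastrin need, was at 1.11 [1.08 to 1.14]. The sulphotransferase genes Tpst1 and Tpst2, which modify tyrosines such as that of cholecystokinin, were at 2.62 [2.10 to 3.28] and 1.69 [1.5 to 1.90]. Ctsl, a cathepsin that also cuts propeptides, was at 1.61, Ctsb at 1.07 and Qpctl at 1.23. Among enzymes that break peptides down, Anpep was at 5.36 [3.06 to 10.0], Prcp at 2.24, Prep at 1.68 and Ece1 at 1.37.

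**Figure D4:**
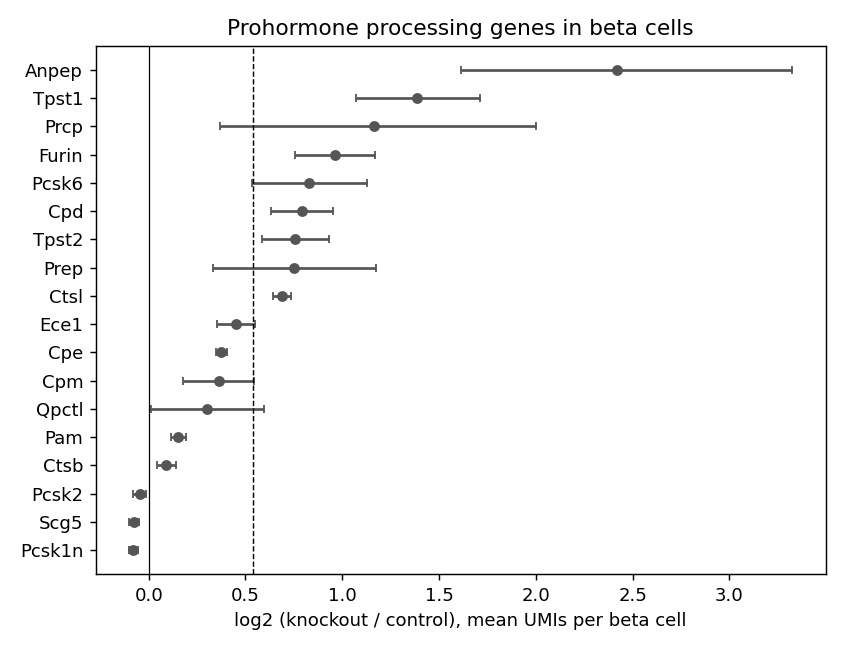
Log2 of knockout over control for the 18 listed genes of prohormone processing, with 95% counting intervals; the dashed line is the median of all listed genes, 0.54. Most lie between -0.08 (Pcsk1n) and 1.39 (Tpst1), and Anpep stands alone at 2.42.

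Of the granule genes, 12 of 20 were listed, 8 higher and 4 lower, where 95.0% of all listed genes were higher and 5.04% lower. Their median of 0.36 became -0.19 after centring on the median gene. Past 1.5 there were 4, all higher, beside 45.7% of all listed genes in that direction. The 12 listed ran from Ptprn, a granule membrane protein, at 0.930 and Scg3, a granin, at 0.968 to Ptprn2 at 1.77 and Cadps2, a priming factor, at 1.87. Of 16 peptide receptor genes only 3 were listed. Gipr, the receptor of the incretin GIP, was at 0.311 [0.226 to 0.422], the somatostatin receptor gene Sstr3 at 1.07 and the glucagon receptor gene Gcgr at 1.70. The cholecystokinin receptor genes Cckar and Cckbr were not analysed here.

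Genes of cyclic AMP signalling, a pathway known to drive both peptide genes, were higher in 25 of the 26 listed of 44, at a median of 0.65, and 14 of them were past 1.5; 15 lay above the median gene and 11 below it. Of all listed genes 95.0% were higher and 45.7% past 1.5, shares close to these. The exception was Prkar1a, a regulatory subunit of protein kinase A, at 0.912 [0.882 to 0.942]. Creb1, the factor that binds the element, had 0.440 UMIs per knockout cell and 0.361 per control cell, a ratio of 1.22 [1.04 to 1.43], below the median gene. The highest ratios were those of Fosb, an immediate early factor, at 3.34 [2.51 to 4.50] and Pde4d, which breaks down cyclic AMP, at 2.98 [2.22 to 4.06]. Atf2, whose product can bind the same element, was at 1.12.

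Islet transcription factors were higher in 19 of 22 listed of 39 (median 0.71; 15 above the median gene and 7 below it), with 14 higher and 2 lower past 1.5, beside 95.0% higher, 45.7% higher past 1.5 and 2.47% lower past 1.5 of all listed genes. Those 2 were Mafa, the factor of mature beta cells, at 0.364 [0.338 to 0.391] and St18 at 0.626 [0.578 to 0.678]. Fev, one of the genes nearest to Cck, had the highest ratio of the list, ahead of Irx2, an alpha-cell factor, at 6.71 [4.18 to 11.3]. All 22 ratios lay between the 0.148 of Cartpt and the 14.9 of Cck, which were chosen for their differences.

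Most listed markers of other cells were higher along with Cck, and their part in its difference was not tested. Of all listed genes 95.0% were higher too, and the median ratio was 1.45. Summed over listed genes, alpha-cell markers (5 of 11 listed, all higher) had 155 UMIs per knockout cell and 62.0 per control cell. Delta-cell markers (4 of 10, all higher) had 66.2 per knockout cell and 40.0 per control cell, and PP and epsilon-cell markers (4 of 8, all higher) 107.5 in the knockout and 21.9 in the control. Pyy, at 41.6 per knockout cell and 12.8 per control cell, counts in both the alpha-cell sum and the PP and epsilon-cell sum. Markers of gut endocrine cells other than Cck (6 of 13, all higher) had 30.6 per knockout cell and 19.0 per control cell, most of it Chgb; Sct and Tph1 were at 0 in the control. Nerve and Schwann markers (2 of 13) had 0.568 per knockout cell and 0.403 per control cell, and red-cell genes (3 of 6) 22.6 per knockout cell and 0.0639 per control cell. Duct genes (8 of 14, all higher) had 80.0 per knockout cell and 44.4 per control cell, most of it Spp1. Mesenchymal genes (6 of 12, all higher) had 0.233 per knockout cell and 0.0446 per control cell, with Dcn and Col1a1 at 0 in the control. Of the acinar genes 1 of 18 was listed, Reg3b, at 0.114 per knockout cell and 0 in the control. Not all lists had this direction. Immune genes (4 of 16) summed to 0.564 per knockout cell and 0.641 per control cell, with Cd68 of macrophages at a ratio of 0.141 and the other 3 higher. Endothelial genes (3 of 9, 2 higher) had 0.521 per knockout cell and 0.270 per control cell, with Cdh5 at 1 UMI over the knockout cells and 13 over the control cells. After centring, 1 gene each of the PP and epsilon-cell, gut, and nerve and Schwann lists and 2 of the duct list also lay below the median gene. With Cartpt, all 6 listed of 10 beta-cell markers were lower, and summed to 13364 UMIs per knockout cell and 22059 per control cell, so both columns were rich in insulin RNA.

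The nearest 2 protein-coding genes on each side of Cartpt and Cck were looked up after the values of both were seen. Beside Cartpt, Map1b (382 kb away) was at a ratio of 1.18 and Bdp1 (117 kb) at 1.52, while Mccc2 and Mrps27 were not listed. Map1b and Bdp1 were above 1, as were 95.0% of all listed genes, and the median gene was at 1.45. Beside Cck, Trak1 (14.9 kb) was at 1.09, Ulk4 (213 kb) at 2.85 and Lyzl4 (82.1 kb) at 2.26; Vipr1 was not listed. Ulk4 and Lyzl4 rest on low levels, 0.0344 and 0.0491 UMIs per knockout cell against 0.0121 and 0.0217 per control cell.

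Cartpt and Cck were not analysed in the other islet cell types, but 3 of the processing genes and some other peptide genes were listed there with a value per mouse. Scg5 in alpha cells had 30.1 and 36.2 UMIs per cell in the knockout mice, against 40.6 in the control mouse, and Ctsl had 12.1 and 11.7 in the knockout mice, against 20.1 in the control mouse. Both knockout mice lay below the control for both genes. In delta cells Pcsk1n had 48.3 and 51.6 in the knockout mice, against 34.0 in the control mouse. Of the peptide genes, 5 were listed in alpha cells. Sst had 12.1 and 42.0 in the knockout mice, on either side of 36.8 in the control mouse. Both knockout mice were below the control for Ins1 (36.0 and 83.1 against 93.6) and Ins2 (160 and 151 against 214). The same held for Ppy (341 and 323 against 427) and Iapp (54.7 and 69.6 against 126). In delta cells 2 were listed, Iapp at 797 and 698 against 1825, and Gcg at 159 and 63.5 against 10. With 1 control mouse these differences have no check against the spread between controls.

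**Figure D5:**
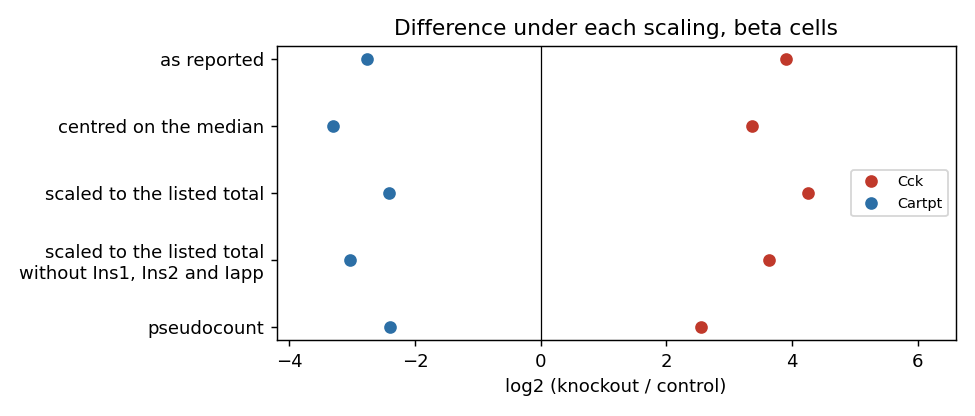
Log2 of knockout over control for Cck and Cartpt in beta cells as reported and under 4 alternatives, which are scalings and a pseudocount (rows). Cck stays between 2.55 and 4.25 and Cartpt between -3.30 and -2.40, on opposite sides of 0 in every row. The shifts are small beside the differences and a pseudocount cannot change a sign, so the unchanged signs are no support.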

How the data were processed

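Mean UMIs per cell were analysed in beta, alpha and delta cells of 2 knockout mice and 1 control mouse. The submitters' processing notes name Cell Ranger 3.0.0 and the build mm10; no source used here states the filters, cell typing, doublet handling or the authors' test. The deposited signal values are unscaled means: times the cell number (815 and 829 in beta cells) 100% of knockout and 99.99% of control values gave whole UMIs within 0.001. The control column is headed WT in the deposited beta-cell table, which gives that name to its first column, of identifiers, as well. Listed UMIs per beta cell came to 24796 in the knockout and 31552 in the control. The p-values deposited by the authors were computed over cells and are quoted once. The tables list only genes the authors found different.

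Ratios use no pseudocount, and their intervals are exact (Clopper-Pearson, from how the UMIs divide between genotypes, scipy 1.17.1). The intervals were tested only on simulated counts with counting error, the error that they assume. That simulation had no spread between cells or mice, so it does not show how the intervals perform on these data. With 1 control mouse no test was run, and counts of genes past a ratio of 1.5 are given as background only. Genes named are both members, their 5 nearest genes (predicted genes left out), all listed peptide and processing genes, and up to 4 examples from the ends of other lists. Creb1, Atf2, Sstr3 and chromosomal neighbours were named after their values were seen, as was the motif TGCGTCA. The members and lists were chosen with earlier results of these data known. There were 6 pathway and 12 marker lists.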

Additional observations from a re-analysis of the deposited data

How the results depend on the processing

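Cartpt stayed lower and Cck higher in the knockout under each scaling tried and with a pseudocount. Each scaling shifts all genes by 1 constant, small beside these differences, and a pseudocount cannot change a sign. The unchanged signs were therefore fixed in advance, and only the sizes are informative. The log2 difference of Cartpt was -3.30 after centring on the median, -2.41 after scaling to the listed total and -2.40 with a pseudocount of 0.0519 UMIs per cell, against -2.76 as reported. That of Cck was 2.55 with the pseudocount, which is larger than its control level, against 3.90. Genes past 1.5 numbered 3741 higher and 202 lower as reported, 1314 and 343 after centring, and 6816 and 112 after scaling to the listed total. With Ins1, Ins2 and Iapp left out of that total, 2104 were higher, and with the pseudocount 2171. A ratio of 2 gave 1626 and 99, and a filter at the median level (0.412 UMIs per cell) 1043 and 112. The list medians shifted with the scaling. After centring they were 0.025 for peptides, 0.029 for processing, 0.11 for cyclic AMP and 0.17 for transcription factors, and they turned to -0.19 for granule genes and -0.44 for receptors. Scaled to the listed total they were 0.91, 0.92, 0.99 and 1.05 for the first 4 of these lists and 0.70 for granule genes. With those 3 genes left out they were 0.30, 0.30, 0.38, 0.44 and 0.088 in the same order, and receptors turned to -0.17. With the filter they were 0.31, 0.37, 0.39, 0.43 and 0.23, and with the pseudocount the peptide median was 0.42. Of 51 values under alternatives, 14 were labelled the same, 34 moved and 3 reversed. For Cartpt and Cck the same meant within the counting interval, and for gene counts a change of less than 1.5 times. The list medians among the 51 have no counting interval given here, so their labels are not interpreted. Leaving out Cartpt and Cck, an alternative added after seeing the data, kept the peptide median at 0.57. The alternatives planned for Cartpt and Cck in alpha and delta cells (leaving out a mouse, edgeR, a pseudocount) gave no value, since neither gene is listed there. In beta cells no mouse could be left out, because the table pools the knockout mice. No paired analysis was possible with 2 knockout mice against 1 control mouse, and the beta-cell table pools both knockout mice. Depth limits the Cck ratio, whose control level rests on 23 UMIs, and intervals cover counting error only.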
